A study of Homo sapiens with 2 samples.

Results

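The hypoxia response genes described here are 10 genes of the pathway through which human cells answer a shortage of oxygen: HIF1A, EPAS1, EGLN3, VEGFA, ADM, CA9, BNIP3, NDRG1, ANKRD37 and P4HA1. They were taken by gene symbol, by a rule that uses no measured value although earlier results of these data were known, and each symbol matched a single row among the 55797 genes of the deposited tables. RNA-seq was performed on 1 library of live cells and 1 library of processed cells. Both came from the H1 human embryonic stem cell line, an established line, differentiated to Stage 6, the last stage of a stepwise pancreatic protocol at which a minority of the cells express insulin. Live cells were neither fixed nor sorted, and their RNA was isolated with the RNeasy kit. Processed cells were a parallel portion of the same culture that was fixed in 4% paraformaldehyde, permeabilized, stained with antibodies and run through the sorter with every cell collected, and their RNA was isolated with a modified RecoverAll kit. The comparison asks whether this handling, named MARIS, altered the measured level of a transcript.

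Cells sense oxygen through HIF, a transcription factor made of an oxygen-labile alpha subunit (HIF1A or EPAS1, the latter also called HIF-2 alpha) and a stable beta subunit (ARNT or ARNT2). When oxygen is plentiful, the prolyl hydroxylases EGLN1, EGLN2 and EGLN3 mark the alpha subunit, and the VHL ubiquitin ligase then sends it to the proteasome. When oxygen is short, the alpha subunit is spared and HIF switches on genes for blood vessel growth, glycolysis, control of pH and mitochondrial turnover. HIF is thus regulated mainly at the level of its protein, which RNA-seq does not measure, so that the mRNA of its target genes is the usual transcript readout.

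Levels are given as FPKM, the fragments assigned to a gene scaled by the length of its exons and the size of the library, with the lower and upper bounds listed in the deposited tables. Bounds describe the precision within 1 library, at a level that is not stated, and not the spread between cultures. With no replicates, no difference between live and processed cells could be tested, and all comparisons are descriptions of this pair of libraries. A log2 ratio compares processed with live FPKM after 1 was added to both, which makes differences at low FPKM look smaller than they are. A gene counted as lower or higher where its 2 pairs of bounds were apart. This rule was easily met, since it marked 43.7% of the 17326 genes that reached 1 FPKM in either library as lower in processed cells, 28.1% as higher and thus 71.8% as different. Because RNA was taken from whole cultures, fewer cells of a type and less RNA per cell cannot be told apart.

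Of the 10 genes, 9 passed the FPKM minimum of 1. ADM, EGLN3, BNIP3 and P4HA1 were lower in processed cells (4 of 9, against 43.7% of all genes), EPAS1 and NDRG1 were higher (2 of 9, against 28.1%), and the bounds of HIF1A, VEGFA and ANKRD37 overlapped. None of the 9 differed more than 2-fold, beside 6.19% of all genes more than 2-fold lower and 6.57% more than 2-fold higher. The share past 2-fold in either direction varied with mean level. It was 24.6% from 1 to 3 FPKM, a class that holds none of the 9 genes. It was 11.5% from 3 to 10 FPKM, 4.13% from 10 to 30, 2.08% from 30 to 100 and 2.33% from 100 to 300 FPKM. The median log2 ratio was -0.07 over the 9 genes and -0.09 over the 17326 genes. CA9, the gene below the minimum, was detected in live cells and listed at 0 in processed cells.

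**Figure D1:**
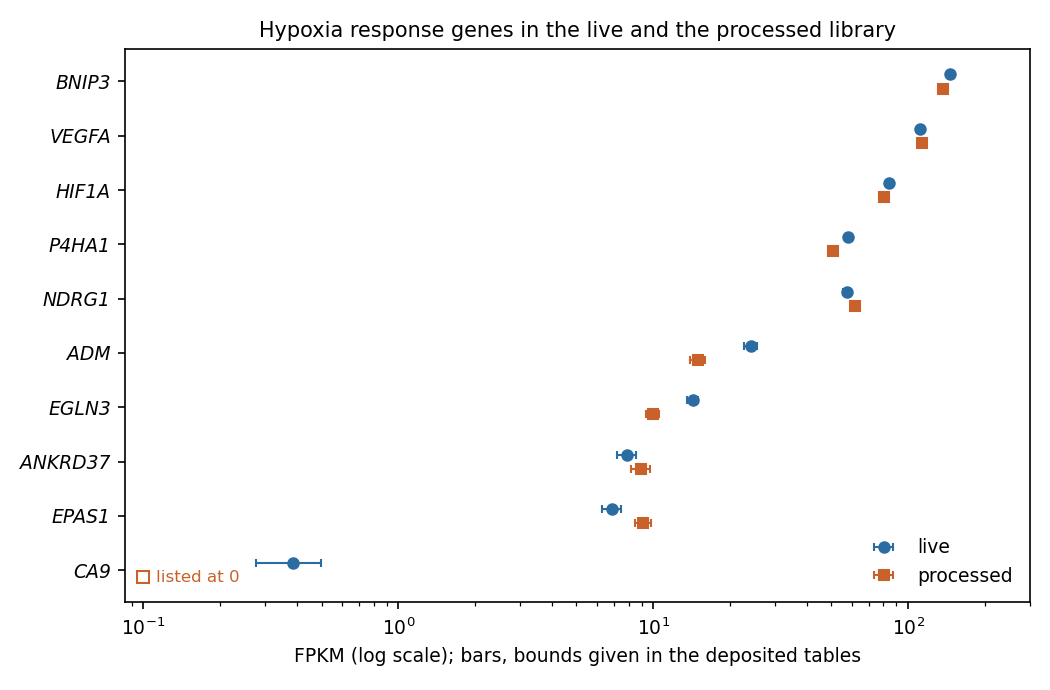
FPKM of the 10 genes on a logarithmic axis in the live library (circles) and the processed library (squares), with bars for the deposited bounds and an open square where a gene was listed at 0. The genes span from 146 FPKM for BNIP3 to 0.385 FPKM for CA9 in live cells, and the widest gaps between the libraries above 1 FPKM are those of ADM and EGLN3.

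The 2 HIF alpha subunits differed widely in level. HIF1A, the subunit found in most cell types (chromosome 14, 62162231 to 62214976, plus strand, protein-coding, GRCh37/hg19 as are all gene positions given here), had 84.0 FPKM in live cells (bounds 82.3 to 85.7) and 80.2 FPKM in processed cells (77.8 to 82.6). Its log2 ratio of -0.07 came with overlapping bounds, and only 4.79% of the 17326 genes had a higher level in live cells. EPAS1, the alpha subunit best known from endothelium and from the control of erythropoietin (chromosome 2, 46520806 to 46613836, plus strand), had 6.88 FPKM in live cells (6.29 to 7.46) and 9.13 FPKM in processed cells (8.45 to 9.81). Its log2 ratio of 0.36 was the highest of the 10 genes, and the bounds were apart. Of the 4925 genes averaging 3 to 10 FPKM, however, 52.3% differed between the libraries by at least as much in either direction. A log2 ratio at least as high was found for 21.9% of them. HIF1A exceeded EPAS1 by 12.2 times in live cells and 8.78 times in processed cells.

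EGLN3, the hydroxylase that marks HIF alpha and is itself induced by HIF (chromosome 14, 34393437 to 34931980, minus strand), had 14.3 FPKM in live cells (13.6 to 14.9) and 9.96 FPKM in processed cells (9.39 to 10.5). The live level was 1.43 times the processed level, with a log2 ratio of -0.48 and bounds apart. Of the 4942 genes averaging 10 to 30 FPKM, 14.8% had a log2 ratio at least as low. At least as large a difference in either direction was found for 24.3%. The annotated span of EGLN3 holds SPTSSA, on the same strand, which had 20.2 FPKM in live cells against 17.5 FPKM in processed cells.

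Among the secreted and surface proteins, VEGFA and ADM differed in how the libraries compared. VEGFA, the main growth factor for blood vessels (chromosome 6, 43737921 to 43754224, plus strand), had 111 FPKM in live cells (109 to 113) and 114 FPKM in processed cells (111 to 116). Its bounds overlapped and its log2 ratio was 0.03. ADM, which encodes the vasodilator peptide adrenomedullin (chromosome 11, 10326227 to 10328944, plus strand), had 24.1 FPKM in live cells (22.8 to 25.5) and 15.0 FPKM in processed cells (13.98 to 16.02). This was the largest difference among the 9 genes above the minimum. The live level was 1.61 times the processed one, with a log2 ratio of -0.65. Of the genes averaging 10 to 30 FPKM, 7.04% had a ratio as low. At least as large a difference in either direction was found for 12.6%. CA9 is a carbonic anhydrase of the cell surface with a part in the control of pH and a widely used hypoxia marker (chromosome 9, 35673853 to 35681156, plus strand). It had 0.385 FPKM in live cells (0.275 to 0.495) and was listed at 0 in processed cells. From the size of the smallest FPKM steps in the live library, this live level corresponds to about 53 fragments on the longest annotated transcript. Of the 539 protein-coding genes with a live FPKM from 0.3 to 0.5, 14.7% were likewise listed at 0 in processed cells. CA9 overlaps the start of ARHGEF39, which lies on the opposite strand, which had 5.21 FPKM in live cells against 3.57 FPKM in processed cells.

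The 4 intracellular members differed in level but had log2 ratios between -0.20 and 0.16. BNIP3, a mitochondrial outer membrane protein that promotes mitophagy (chromosome 10, 133781578 to 133795435, minus strand), had the highest level of all 10 genes in both libraries, at 146 FPKM in live cells (144 to 149) and 138 FPKM in processed cells (135 to 140). Its bounds were apart, although its log2 ratio of -0.09 equalled the median of all genes to 2 decimals. A processed pseudogene of it, BNIP3P1 (chromosome 14, 28733596 to 28735180), had 55.2 FPKM in live cells against 60.9 FPKM in processed cells, and how fragments common to both copies were divided is not known, so the BNIP3 values are uncertain. NDRG1, a stress-responsive cytoplasmic protein (chromosome 8, 134249414 to 134314265, minus strand), had 57.4 FPKM in live cells (55.6 to 59.2) and 62.0 FPKM in processed cells (59.8 to 64.2), a log2 ratio of 0.11 with bounds narrowly apart. P4HA1, the catalytic alpha subunit of the enzyme that hydroxylates prolines of collagen (chromosome 10, 74766975 to 74856732, minus strand), went the other way, from 58.0 FPKM in live cells (57.1 to 58.98) to 50.5 FPKM in processed cells (49.4 to 51.6), a log2 ratio of -0.20. ANKRD37, a small ankyrin repeat protein (chromosome 4, 186317175 to 186321782, plus strand), had 7.87 FPKM in live cells (7.19 to 8.56) and 8.94 FPKM in processed cells (8.17 to 9.71), and the bounds overlapped. Its end overlaps UFSP2 on the opposite strand, at 13.7 FPKM in live cells against 16.2 FPKM in processed cells.

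The order of the levels was largely shared by the libraries. In both, BNIP3 stood highest, followed by VEGFA and then HIF1A, with bounds apart between neighbours. P4HA1 and NDRG1 could not be separated in live cells, whereas NDRG1 exceeded P4HA1 in processed cells. ADM and EGLN3 followed in both libraries. ANKRD37 and EPAS1 overlapped in their bounds in both libraries, and in processed cells EPAS1 also overlapped with EGLN3. HIF1A is crossed by 3 long non-coding RNAs. The antisense RP11-618G20.2 and RP11-618G20.4 (HIF1A-AS3 and HIF1A-AS1 in GENCODE 44) stayed at or below 0.327 FPKM in both libraries, and RP11-618G20.1, on the strand of HIF1A, had 2.40 FPKM in live cells against 5.29 FPKM in processed cells. Whether the library kept strand is not stated, so that overlapping transcripts on opposite strands may share fragments.

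**Figure D2:**
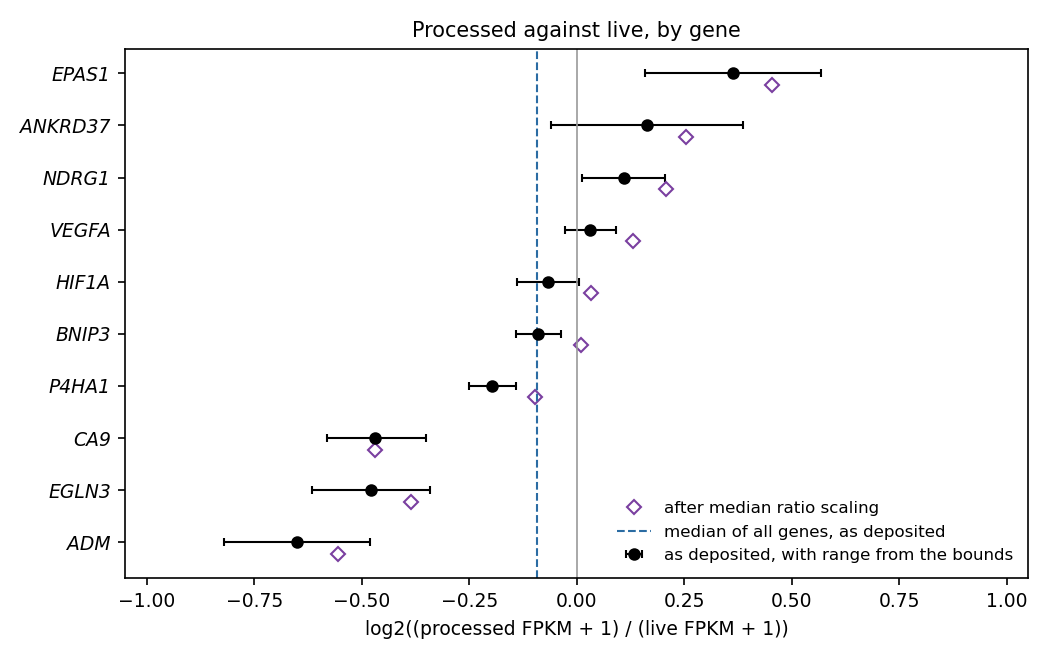
Log2 ratio of processed to live cells for the 10 genes as deposited (filled circles, bars for the range that the 2 pairs of bounds allow) and after processed values were divided by the median ratio of all genes (open diamonds). ADM, EGLN3 and CA9 lie at -0.65, -0.48 and -0.47, below the dashed line that marks the median of all genes at -0.09, and EPAS1 lies highest at 0.36.

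Some of these directions depended on how the libraries were scaled. Dividing processed FPKM by the median ratio of all genes, 0.932, moved every log2 ratio of a well expressed gene up by about 0.10. ADM, EGLN3 and P4HA1 stayed lower and EPAS1 and NDRG1 stayed higher, with bounds apart, as deposited and under all 3 scalings tried. BNIP3 had overlapping bounds under 2 of the 3 scalings, at -0.04 under the 75th percentile scaling and with a changed sign, at 0.01, under the median scaling, and HIF1A changed sign to 0.03, also with overlapping bounds. VEGFA had bounds apart and higher in processed cells under each of the 3 scalings, and ANKRD37 under the median scaling alone. The split of the 9 genes was therefore 2 higher and 4 lower as deposited, and 4 higher and 3 lower after median scaling, where 34.98% of all genes were higher and 35.4% lower.

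**Figure D3:**
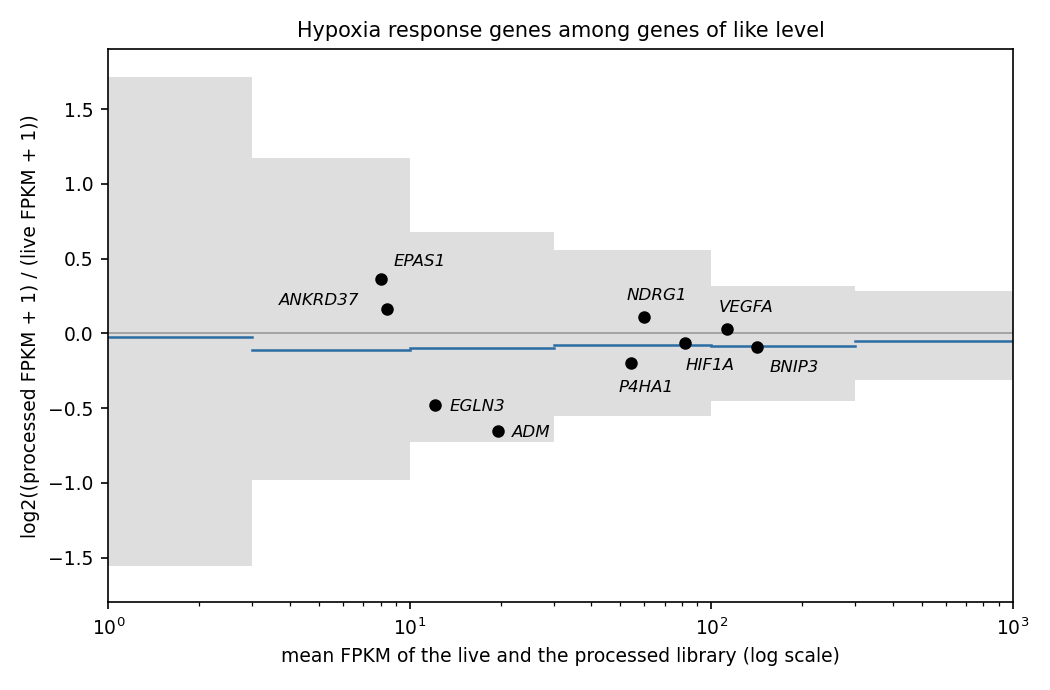
Log2 ratio against mean FPKM (logarithmic axis) for the 9 genes above the minimum, over grey bands that hold the central 90% of all genes in 6 classes of mean FPKM and blue lines at each class median. All 9 points fall inside the bands, and ADM, at -0.65, comes closest to the lower edge of its class at -0.73.

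Log2 ratios over all genes also moved with transcript composition and length. Among protein-coding genes that reached 1 FPKM in both libraries, the median was -0.21 where the longest annotated transcript had less than 40% GC and -0.02 at 60% GC or more. It was 0.03 for transcripts under 1000 nt and -0.19 for those of 6000 nt or more. ADM, at 58.5% GC and 1889 nt, and EGLN3, at 49.4% GC and 2849 nt, lay below the medians of their classes, which ran from -0.12 to -0.02. HIF1A, the gene lowest in GC at 36.4%, lay above the median of its GC class. The part of composition and length in the results was not tested.

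Stretches of RefSeq promoter sequence were examined for the core of the hypoxia response element, the site to which HIF binds. The core was searched as ACGTG and as GCGTG, on both strands, in the 250 bases before each start site. ACGTG on opposite strands forms the palindrome CACGTG, which is counted once per strand and is also the E-box of other factors. Promoters were found for 8 of the 10 genes (9 start sites, 2 of them of HIF1A) and not for VEGFA and NDRG1. ACGTG was present in 4 of the 8 genes, CA9, BNIP3, ANKRD37 and P4HA1, and in 18.5% of all 35116 promoters of the table. Either form was present in 7 of the 8, and in 43.2% of all promoters, EGLN3 being the gene without it in this window. Members were counted by gene and all promoters by start site, so these shares are not strictly alike. The member stretches ran from 60.4% GC (CA9) to 81.6% GC (BNIP3), apart from 31.2% at the second start site of HIF1A. The part of this composition in the matches was not tested. The stretches below hold every match found in the promoters of 6 genes. They set genes lower in processed cells as deposited (CA9, ADM, P4HA1, BNIP3) beside 2 that were not (ANKRD37, EPAS1). Of the lower genes, CA9 lay below the FPKM minimum, and the call of BNIP3 depended on the scaling. Capitals mark the matches, and sequences read 5′ to 3′ on the strand of the gene.
CA9: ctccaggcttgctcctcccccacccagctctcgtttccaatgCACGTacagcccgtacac
ADM: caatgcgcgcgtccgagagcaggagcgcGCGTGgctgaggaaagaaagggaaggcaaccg
P4HA1: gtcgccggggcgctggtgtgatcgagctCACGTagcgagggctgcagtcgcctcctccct
BNIP3: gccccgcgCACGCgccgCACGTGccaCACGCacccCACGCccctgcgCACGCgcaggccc
ANKRD37: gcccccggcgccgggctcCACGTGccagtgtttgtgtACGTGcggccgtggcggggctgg
EPAS1: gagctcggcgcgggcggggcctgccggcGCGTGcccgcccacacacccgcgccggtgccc
On GRCh38.p14, the build of the promoter table, these are chr9:35673868-35673927 (plus strand), chr11:10304944-10305003 (plus), chr10:73096921-73096980 (minus), chr10:131982015-131982074 (minus), chr4:185396661-185396720 (plus) and chr2:46297262-46297321 (plus). BNIP3 held 6 matches and ANKRD37 held 3, whereas the others held 1 each. The single match of CA9 ended 14 bases before the start site. Matches occurred in genes that were lower, higher and overlapping between the libraries, and they describe sequence, not binding.

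The members were set beside 100 further genes of the pathway, taken from 6 lists by role, of which 95 passed the FPKM minimum. Of these, 58 were lower in processed cells (61.1%, against 43.7% of all genes) and 14 were higher (14.7%, against 28.1%), with a median log2 ratio of -0.17. After median scaling 42 of 96 were lower and 22 higher, beside 35.4% and 34.98% of all genes under that scaling, and the median was -0.07. More than 2-fold lower were 4 genes, against 6.19% of all genes, and 1 of the 4, NRP2, had overlapping bounds. None was more than 2-fold higher, against 6.57%. Without the added 1, 7 genes were more than 2-fold lower and 1, CALCRL, more than 2-fold higher.

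**Figure D4:**
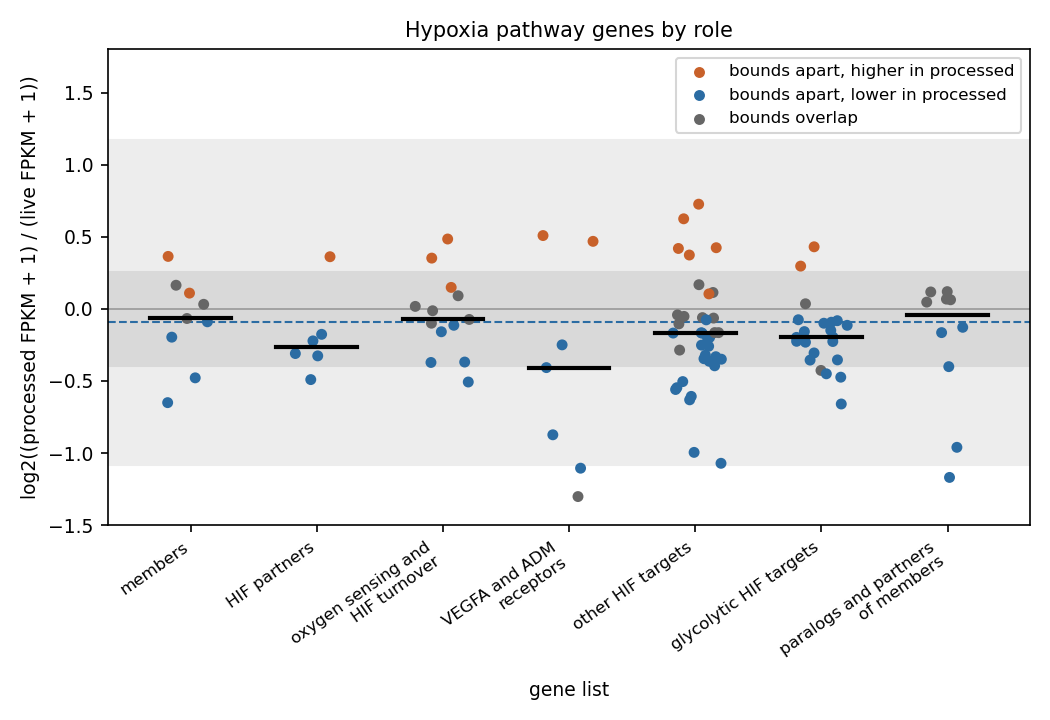
Log2 ratios of the members and of the 6 other lists, a point for each gene above the FPKM minimum, coloured by whether the bounds were apart, with a black bar at each list median; grey bands hold the central 90% and the interquartile range of the 17326 genes, and the dashed line is their median. The glycolytic targets and the HIF partners lie mostly below the dashed line, with medians of -0.20 and -0.27.

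In the small list of HIF alpha partners, 5 of 6 genes were lower and 1 was higher, against 43.7% and 28.1% of all genes. ARNT2, a beta subunit abundant in neural cells, had the lowest log2 ratio of the list at -0.49, from 13.1 FPKM in live to 9.04 FPKM in processed cells, and ARNT, the general beta subunit, had 13.2 and 10.4 FPKM. CITED2, which competes with HIF alpha for its coactivators, had 85.4 FPKM in live cells against 67.9 FPKM in processed cells, and the coactivators EP300 and CREBBP had log2 ratios of -0.18 and -0.22. HIF3A, another alpha subunit, was the gene that was higher, at 2.93 FPKM in live cells against 4.05 FPKM in processed cells. These 6 calls kept their direction under all 3 scalings.

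Genes of oxygen sensing and HIF turnover showed both directions, with 5 of 13 lower and 3 higher, shares of 38.5% and 23.1% that lie near the 43.7% and 28.1% of all genes. After median scaling 3 were lower and 4 higher, beside 35.4% and 34.98% of all genes. EGLN1, the main hydroxylase of HIF alpha, had 22.9 FPKM in live cells against 17.5 FPKM in processed cells, and thus lay lower as EGLN3 did, whereas EGLN2 was higher, at 28.7 and 31.9 FPKM. For HIF1AN, the asparaginyl hydroxylase that blocks coactivator binding, at 16.2 and 15.0 FPKM, and for VHL, at 24.9 and 26.6 FPKM, the bounds overlapped as deposited. Under each of the 3 scalings VHL had bounds apart and was higher in processed cells. Among the subunits of the VHL ligase, CUL2 had the lowest ratio (-0.51, from 15.8 to 10.8 FPKM) and TCEB2, elongin B, had 127 FPKM in live cells against 97.7 FPKM in processed cells. USP20, a deubiquitinase of HIF1A, and SIAH2, a ligase acting on EGLN3, had the highest ratios of the list, 0.48 and 0.35. GNB2L1, or RACK1, was the most abundant gene of this list, at 1001 and 925 FPKM. The list median was -0.07 as deposited and 0.02 after median scaling.

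The list of receptors and coreceptors of VEGFA and adrenomedullin also held RAMP1, of the same family as RAMP2 and RAMP3. Of its genes that passed the minimum, 4 of 7 were lower and 2 higher, against 43.7% and 28.1% of all genes. FLT1 and KDR, the VEGF receptors of endothelium, had 1.38 and 1.21 FPKM in live cells and 0.108 and 0.857 FPKM in processed cells. With a log2 ratio of -1.10, FLT1 was more than 2-fold lower. The coreceptor NRP2 had 24.998 FPKM in live cells against 9.55 FPKM in processed cells, but its live value carried a failed status and bounds from 0 to 228 FPKM. CALCRL, the receptor that binds adrenomedullin together with RAMP2 or RAMP3, was higher in processed cells (0.570 to 1.23 FPKM). RAMP2 was lower (5.46 to 2.53 FPKM) and RAMP3 was listed at 0 in both libraries. RAMP1, with which CALCRL forms a receptor for another peptide, CGRP, was higher (10.5 to 14.9 FPKM). Of the 10 endothelial markers, 9 were in the tables and 7 of these stayed below 1 FPKM in both libraries. The exceptions were ESAM, at 1.07 FPKM in live cells against 0.505 FPKM in processed cells, and ERG, at 0.0802 and 3.51 FPKM. CDH5, a defining endothelial cadherin, had 0.222 and 0.312 FPKM with overlapping bounds, and the bounds of VWF overlapped as well. TEK was higher in processed cells with bounds apart, at a log2 ratio of 0.22. CLDN5 was lower, at 0.842 and 0.107 FPKM. TIE1 had 0.876 FPKM in live cells and was listed at 0 in processed cells. The summed level of the list was 4.03 FPKM in live cells against 5.58 FPKM in processed cells, and without ERG it was 3.95 against 2.06 FPKM. The part of endothelial cells in the receptor values was not tested.

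Of the glycolytic targets of HIF, 18 of 22 were lower in processed cells (81.8%, against 43.7% of all genes) and 2 were higher (9.09%, against 28.1%), with a median log2 ratio of -0.20. The share of all genes called lower as deposited varied with mean level. It was 35.9% from 1 to 3 FPKM, 53.6% from 100 to 300 FPKM and 48.4% at 300 FPKM or more. Median scaling left 12 of the glycolytic targets lower and 4 higher, beside 35.4% and 34.98% of all genes. SLC2A3, a glucose transporter, had 255 FPKM in live cells against 186 FPKM in processed cells. PDK1, a kinase of pyruvate dehydrogenase, had 30.2 and 21.5 FPKM. GYS1, the glycogen synthase of muscle, had the lowest ratio of the list (-0.66, from 23.0 to 14.2 FPKM). Higher were the enolase ENO2, at 49.3 and 66.7 FPKM, and the hexokinase HK1, at 20.8 and 25.7 FPKM. GPI had 106 and 109 FPKM with overlapping bounds. GAPDH, the most abundant gene of the list, had 2479 FPKM in live cells against 2353 FPKM in processed cells, a log2 ratio of -0.08 that changed sign under median scaling.

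Other targets of HIF were lower in 21 of 37 cases (56.8%, against 43.7% of all genes) and higher in 6 (16.2%, against 28.1%). After median scaling 15 were lower and 7 higher, beside 35.4% and 34.98% of all genes. TFRC, the transferrin receptor, was more than 2-fold lower (-1.07), at 14.1 FPKM in live cells against 6.19 FPKM in processed cells. With 1 added to both levels, its log2 ratio was -0.98 after median scaling. KCTD11, a component of a ubiquitin ligase, and MXI1, an antagonist of MYC, had ratios of -0.995 and -0.63. WSB1 was the most abundant, at 179 and 140 FPKM. BNIP3L, the closest relative of BNIP3 and also a mitophagy receptor, was lower as well (54.7 and 47.4 FPKM), and so was P4HA2, the sister subunit of P4HA1 (16.9 and 14.01 FPKM), whose bounds overlapped after median scaling. CA12, another surface carbonic anhydrase, had 1.63 and 1.16 FPKM with overlapping bounds. Higher in processed cells were MIR210HG, the host transcript of the hypoxia-induced miR-210, at 17.1 and 28.9 FPKM (0.73), the histone demethylase KDM4C, at 9.49 and 15.2 FPKM (0.62), and the heme oxygenase HMOX1, at 3.56 and 5.12 FPKM (0.42).

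Paralogs and protein partners of the members were lower in 5 of 10 cases, near the 43.7% of all genes, and higher in none, against 28.1%. After median scaling 3 of 11 were lower and 4 higher, beside 35.4% and 34.98% of all genes. P4HB, the beta subunit that pairs with P4HA1, had 192 FPKM in live cells against 176 FPKM in processed cells, a log2 ratio of -0.13 whose bounds overlapped after median scaling. NDRG4, in contrast to NDRG1, was more than 2-fold lower, at 16.6 and 6.84 FPKM (-1.17), and NDRG3 had 7.80 and 8.23 FPKM with overlapping bounds. BNIP1 and BNIP2, named like BNIP3 for binding the same adenoviral protein, had ratios of -0.96 and -0.40. The carbonic anhydrases CA2 and CA4 had overlapping bounds as deposited, at ratios of 0.12 each.

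All 13 pancreatic markers of the labelled cell type exceeded 1 FPKM in both libraries. Of these, 6 were higher and 4 lower in processed cells, against 28.1% and 43.7% of all genes. The levels of all 13 summed to 2597 FPKM in live cells against 2590 FPKM in processed cells. Most of this was CHGA, whose processed bounds ran from 0 to 4712 FPKM, and without it the sums were 803 and 849 FPKM. The 10 stromal markers summed to 106 and 99.3 FPKM, with 3 higher and 5 lower, against the same shares of all genes. The 7 pluripotency markers summed to 177 and 137 FPKM, with 1 higher (NANOG, 1.27 and 7.34 FPKM) and 5 lower, against the same shares. The largest part was LIN28A, at 119 and 88.7 FPKM, and without it the sums were 57.6 and 48.6 FPKM. The 8 macrophage markers summed to 6.32 and 1.63 FPKM, and 6 of them stayed below 1 FPKM in both libraries. The others, AIF1 and CD163, had 2.71 and 1.60 FPKM in live cells and were listed at 0 in processed cells. CSF1R went the other way, at 0.498 and 0.923 FPKM with overlapping bounds. In processed cells 5 of the 8 were listed at 0, beside 30569 of all 55797 genes. FPKM over all genes summed to 510713 in live and 499398 in processed cells, and 26176 and 30569 genes were listed at 0. The value of 1 fragment was 1.07 times as large in the processed library, which was thus slightly shallower.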

How the data were processed

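RNA-seq of 1 live and 1 processed sample of H1-derived Stage 6 cells was used. Per the study's methods and the submitters' processing notes, paired 80 nt reads were aligned by STAR 2.2.0c on GRCh37/hg19 with GENCODE 14 as a guide, and the authors deposited FPKM values with bounds and a status, made with Cufflinks 2.0.2 (Cuffdiff in the methods). Read counts are not in the tables used here.

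The tables were joined by Ensembl identifier, and log2 ratios (pseudocount 1), separation of bounds and 2-fold limits were computed with Python 3.11.15, numpy 2.4.6 and pandas 2.3.3, and tested on simulated data. Counts covered genes that reached 1 FPKM in either library. Gene type, transcript length and GC came from GENCODE 44 on GRCh37, which held 94.5% of the identifiers. The value of 1 fragment was read from steps in low FPKM of genes with 1 transcript, on the transcript length less 170 nt. Locus starts count from 0 in the tables and were printed counting from 1.

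The members and gene lists were chosen with earlier results of these data known. Per list, the 3 highest and 3 lowest ratios, the most abundant gene, direct partners of members and genes overlapping a member were named, and BNIP3P1 was added after its values were seen. Markers are named by their level. Alternatives covered pseudocount, scaling, the FPKM minimum, status and the fold limit. No replicate error exists with 1 sample per condition.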

Additional observations from a re-analysis of the deposited data

How the results depend on the processing

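Of 135 recomputed values, 118 kept their direction and moved by less than the error that the bounds allow or, for counts, by at most 1.5 times. Scaling processed FPKM by the median ratio shifted the median of all genes by 0.10 on the log2 scale, as its construction requires. It reversed BNIP3 to 0.0108 and the median over the members to 0.0331, and raised the genes with separate bounds that were higher to 4 members and 22 other pathway genes. At an FPKM of at least 10, 1 member was higher, because fewer genes were tested. A fold limit of 1.5 gave 1 member lower (ADM), and 2 other pathway genes higher and 10 lower. Without a pseudocount, 1 other pathway gene was more than 2-fold higher and 7 were lower, and a pseudocount of 0.1 also gave 7 lower. Single members moved in 6 further cases, among them CA9 with a pseudocount of 0.1, at -2.28. No paired analysis was possible because each condition has 1 sample, and for the same reason no replicate could be left out. The FPKM bounds limit precision to between 1.66% of the value for P4HA1 and 28.5% for CA9 in live cells.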
